A study of Arabidopsis thaliana with 9 samples.

Results

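The H3K4me3 landscape of wild-type Arabidopsis thaliana was described from 13984 nuclear regions that held a chromatin immunoprecipitation sequencing (ChIP-seq) peak in both Col-0 libraries. A region was made by merging peaks of the 2 Col-0 lists that shared at least 1 bp on chromosomes 1 to 5, and it was kept where both lists contributed a peak. These were 97.1% of the 14401 merged regions of the 2 lists, and the series as a whole, with its mutants, merged into 14670 regions. The Col-0 plants were wild type, harvested whole as 12-day-old seedlings after growth at 23 °C with 16 h of light and 8 h of dark on medium with 1% sucrose. The labels do not say whether the 2 libraries came from separate cultures, so the spread between them may be technical. No mutant library entered any value below. With 1 group and 2 libraries no group comparison was made and no p-value is given.

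Trimethylation of lysine 4 of histone H3 is laid down by Trithorax-type and SET1-type methyltransferases in COMPASS-like complexes. In plants it sits over the first nucleosomes of transcribed genes, where it is read by proteins with PHD fingers and other domains. Genes silenced by Polycomb group proteins, among them many regulators of flowers and seeds, commonly carry H3K27me3 instead. A seedling holds leaves, hypocotyl, roots and a vegetative shoot apex, and no seed, pollen or open flower.

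The 2 lists held 14343 and 14291 nuclear peaks, of which 14128 (98.5%) and 14089 (98.6%) lay in shared regions. The peaks left outside, 215 in replicate 1 and 202 in replicate 2, were weak. Their median score percentile within their own list was 1.97 and 1.79, and the highest was 12.6 and 10.1. Of these, 198 and 194 lay on a protein-coding gene, so most of them were on genes too. The smallest overlap of a replicate 1 peak with a replicate 2 peak was 380 bp, the next 432 bp, and the nearest unshared peaks were 24 and 26 bp away from a peak of the other list. Covered bases were 91.7% shared, with 28.1 Mb under peaks of both lists and 30.6 Mb under a peak of either. A single peak in each library made up 13774 regions (98.5%). Several peaks in replicate 1 faced a single one in replicate 2 in 106 regions, the reverse was found in 70, and both libraries had several in 34.

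Most regions had a similar size. The bp of peak in a region are called its width here, and the mean of both libraries is used unless both are given. Median width was 1849.5 bp in replicate 1 and 1866 bp in replicate 2. The middle 50% of regions spanned 1660.5 to 2274.5 bp, and 52.6% measured between 1500 and 2000 bp. The widths had a long upper tail, with 1388 regions above 3000 bp, 111 above 5000 bp and 6 above 8000 bp. At the other end 119 regions were under 1000 bp, and the narrowest measured 388 bp. The libraries differed in the width of a region by 71 bp at the median, or 3.61% of the width, and by 313 bp at the 95th percentile. Replicate 2 had the wider peak in 7731 regions and replicate 1 in 6193. Spearman's rho of the 2 widths across the 13984 regions was 0.933, as a description, since the regions share their libraries. More than 500 bp separated the libraries in 314 regions, of which 303 had 1 peak in each library.

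**Figure D1:**
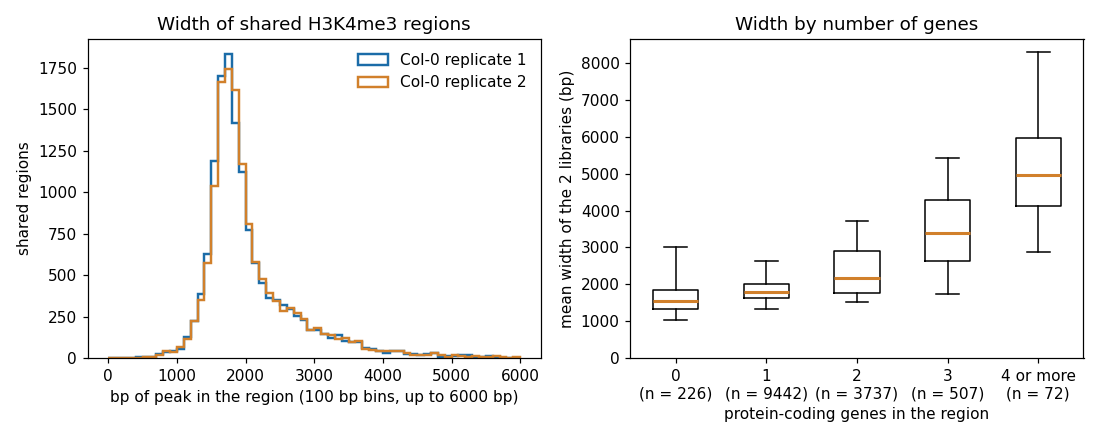
Left, number of shared regions by the bp of peak in each Col-0 library, in bins of 100 bp; the few regions above 6000 bp are not drawn. Right, mean width of the 2 libraries by the number of protein-coding genes in the region, as box plots with the median, the quartiles and whiskers at the 5th and 95th percentiles. Both libraries peak in the same narrow range and the medians go from 1794.5 bp with 1 gene to 4952 bp with 4 or more.

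Width rose with the number of genes under a region. Protein-coding genes were counted where at least 200 bp of the region lay on them. A single gene was held by 9442 regions (67.5%), with a median width of 1794.5 bp (quartiles 1630 and 2019 bp). The 3737 regions with 2 genes had a median of 2184.5 bp, the 507 with 3 genes 3389.5 bp, and the 72 with 4 or more genes 4952 bp. The highest number, 6 genes, was reached in 4 regions. Of the 111 regions above 5000 bp, 106 held at least 2 genes. A wide region in these lists thus lay in most cases over several neighbouring genes. The median width per gene was 1092 bp for pairs, 1130 bp for triplets and 1218 bp for 4 or more. A wider region has more room to meet a gene, and the median 500 kb window held 130 genes. Part of this relation is therefore set by the way genes were counted. Whether more genes were met than by any stretch of that width was not tested.

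Regions were named by the gene of largest overlap, and the 10 widest in which that gene has a symbol are given first. Another 9 regions were wider than the last of these 10, and their gene of largest overlap has no symbol or they hold no gene. Each of the 10 held at least 2 genes. The region of APO2, a gene of a family named for photosystem I accumulation, spanned chromosome 5, 23448572 to 23457751 (TAIR10). The region had 8612 and 8659 bp of peak in replicates 1 and 2. It also held CNGC5, a cyclic nucleotide-gated channel gene, SKIP1 and ENODL10. Next to NPC1, a non-specific phospholipase C gene (chromosome 1, 2220944 to 2229572), the glycosyltransferase genes UGT71C5, UGT71C4 and UGT71C3 shared 8629 and 8457 bp. The cytochrome P450 genes CYP72A7 and CYP72A8 lay under 8167 and 8052 bp (chromosome 3, 4908506 to 4917057). Receptor-like protein genes RLP32 and RLP33 shared 7409 and 7374 bp. The others of these 10 were the regions of TBL12 (7246 bp), the auxin F-box gene AFB4 (7194 bp), scpl50 with the chaperonin gene CPN10 (7064.5 bp), GAMMA CA3 of mitochondrial complex I (7033.5 bp), EPS1 of salicylic acid synthesis (6800 bp), and the receptor-like kinase gene RKF3 with the nucleolar gene SWA1 (6628 bp). In these 10 the SD of the 2 libraries lay between 24.0 and 246 bp.

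The widest of all shared regions were named by a gene without a symbol, and are given here after their values were seen. The region over AT5G47620 and 5 neighbours, among them ASG7 (chromosome 5, 19293387 to 19305226) had 11757 bp in 3 peaks in replicate 1 and 11734 bp in 1 peak in replicate 2. The region over AT1G78200 and 5 neighbours (chromosome 1, 29413959 to 29424771) had 10715 and 10813 bp in 1 peak each. Neither was strong: their mean score percentiles were 62.0 and 45.2. That was not typical of wide regions. The 111 regions above 5000 bp had a median percentile of 95.4, with 70 of them above 90 and 4 below 50. Single genes under more than 5000 bp were rare, with 4 regions, also chosen after their values were seen. GLT1, the gene of NADH-dependent glutamate synthase, had 5640 and 5880 bp at a percentile of 94.0. ABCB4, an auxin transporter gene, had 5715 and 5770 bp at a percentile of 42.4. The mitochondrial carrier gene mSFC1 had 5505 and 5434 bp, and AT5G38210 had 5177 and 5033 bp.

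Score rank was closely kept between the libraries. The score is the authors' value for each peak, and it was used only as a percentile within its own list, where 100 is the highest; a region with several peaks took the highest of them. Scores ran from 20.02 to 3208.38 in replicate 1 and from 20.01 to 3129.61 in replicate 2, and 13 and 11 peaks carried exactly 3100, which ties them in rank. Spearman's rho between the libraries was 0.965 across the 13984 regions, again as a description. The percentile of a region differed by 3.95 points at the median and by 15.8 points at the 95th percentile. The top 10% of replicate 1 held 1434 regions and that of replicate 2 held 1430, and 1196 regions were in both, 83.4% of the first and 83.6% of the second. A difference above 20 points was found in 288 regions, of which 143 ranked higher in replicate 1 and 145 in replicate 2. In 48 of them the libraries had unequal numbers of peaks.

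Strong regions were wide regions, but mainly at the top. Across all shared regions Spearman's rho of mean width and mean percentile was 0.671, and among the 9428 regions with 1 gene and 1 peak in each library it was 0.611. Both measures come from the same peak call, so they are not independent. When the regions were divided into 5 classes of equal size by score percentile, the median width was 1568, 1714.5, 1806, 1954.5 and 2643 bp from the weakest to the strongest class. The step to the strongest class was the largest. The share of regions with 2 or more genes was 19.0% in the weakest class and 54.2% in the strongest, and the share without a protein-coding gene was 4.18% and 0.465%.

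**Figure D2:**
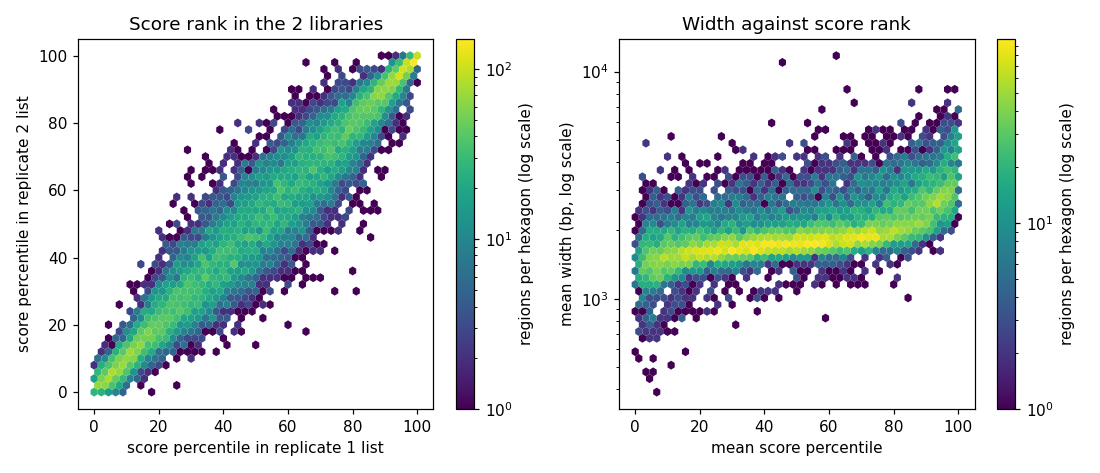
Left, score percentile of each shared region within the replicate 1 list and the replicate 2 list. Right, mean width in bp on a log scale against the mean score percentile; colours give the number of regions per hexagon on a log scale. The ranks of the libraries lie along the diagonal, and the band of widths stays below 2000 bp on the whole until the strongest of 5 classes, where the median is 2643 bp.

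The 10 regions with the highest mean percentile were chosen in the same way, among those whose gene of largest overlap has a symbol. Outside this choice 14 regions ranked above the last of the 10, among them the region of AT1G15830 and LHCB6 at a mean percentile of 99.9. HEMC came first of the 10, the gene of porphobilinogen deaminase in chlorophyll and haem synthesis. Its region, with YLS8 and AT5G08300 (chromosome 5, 2664207 to 2668809), measured 4603 and 4461 bp at percentiles of 99.97 and 100. TIC, a regulator of the circadian clock, was alone in its region (chromosome 3, 7912624 to 7917100) with 4471 and 4367 bp. BRI1, the brassinosteroid receptor gene, was also alone (chromosome 4, 18324244 to 18328051), with 3808 and 3767 bp, and so was AVP1, the gene of the vacuolar proton pyrophosphatase, with 3845 and 3870 bp. GTE7, a bromodomain gene, shared 4145 and 4279 bp with AT5G65620. RBL, whose product is a core subunit of COMPASS-like H3K4 methyltransferase complexes, shared 3616 and 3579 bp with the photosystem II gene PSBTN. The others of these 10 were the regions of ARO3 with the cold shock domain gene CSDP1 (4801 bp), RPL3P (6401 bp), scpl50 and RKF3. All 10 had a mean percentile of at least 99.8, so their order rests on very small differences.

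The 10 lowest-ranked and the 10 narrowest regions were chosen by the same rule, and 9 and 16 regions outside it lay below the last of each. Among the 10 lowest in rank were the glycosyltransferase genes UGT73B5 and UGT84A4, the glutathione transferase gene GSTF6, the galactinol synthase gene GolS1 and the early light-induced gene ELIP1. UGT73B5 had 844 and 862 bp at a mean percentile of 0.0873. GolS1 had 1595 and 1575 bp and ELIP1 1591 and 1463 bp, so a low rank did not need a narrow peak. NTT, DCL2, LPR2, UGE3 and BAS were the other genes of this group, with widths of 1325 to 1539.5 bp. Among the 10 narrowest named regions, AAE5, an acyl-activating enzyme gene, had 2, of 437 and 433 bp and of 694 and 727 bp. The beta-tubulin genes TUB2 (716 and 728 bp) and TUB3 (700 bp in both libraries) were also among them. TUB2 and TUB3 are near-identical neighbouring genes whose reads may not be assignable to 1 copy, so their peaks are uncertain. The defence gene NDR1 had 757 and 729 bp, GSTF6 565 and 575 bp and CYP706A1 751 and 721 bp. RIF10 (544 and 557 bp), CYCB1;5 (663 and 687 bp) and SK42 (714 and 687 bp) completed the 10, all with mean percentiles under 10.

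On the gene side, 16953 of 27444 protein-coding genes (61.8%) had at least 200 bp of a shared region. Replicate 1 alone placed a peak on 17039 genes and replicate 2 on 17054. The share depended on gene length. Of genes up to 500 bp 13.0% were marked, of those from 500 to 1000 bp 25.3%, from 1500 to 2000 bp 62.2%, from 3000 to 4000 bp 79.3% and above 6000 bp 90.7%. A longer gene offers more room for an overlap, and 229 genes shorter than 200 bp could not pass at all.

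Region width, in contrast, levelled off with gene length. Among genes alone in their region the median width was 1408 bp for genes of 500 to 1000 bp and 1772 bp for those of 1500 to 2000 bp. It stayed between 1796 and 1848 bp in the 4 classes above 2000 bp. The region therefore covered all of a short gene, 62.6% of a gene of 2000 to 3000 bp, and 19.7% of a gene above 6000 bp, at the median.

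H3K4me3 regions sat on 1 end of long genes. The annotation used here gives no strand, so a gene's start could not be told from its end, and ends were counted instead. Of 1102 genes of at least 3000 bp with no other protein-coding gene within 1000 bp, 710 had exactly 1 shared region. In 673 of them (94.8%) the region covered 1 end of the gene, in 33 neither end and in 4 both ends. The covered end had the lower coordinate in 334 genes and the higher in 339. From that end the region reached 1570 bp into the gene at the median (quartiles 1366 and 1975 bp) and 353 bp beyond it (quartiles 269 and 412 bp). The outer edge was thus tighter than the inner one. Of the 673 genes 97.2% were still covered 100 bp outside the covered end and 5.05% at 500 bp, while inside 98.2% were covered at 1000 bp, 56.9% at 1500 bp and 23.9% at 2000 bp.

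**Figure D3:**
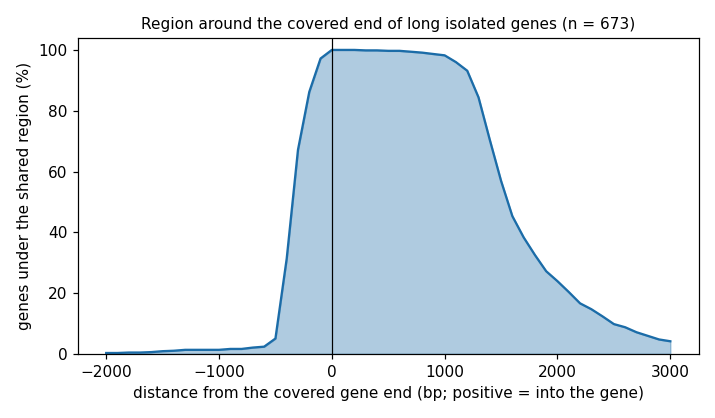
Share of the 673 long isolated genes lying under the shared region at each distance in bp from the gene end that the region covers, in steps of 100 bp; positive distances run into the gene. Genes were turned so that the covered end is at 0, so the value at 0 is set by that choice; coverage drops to 5.05% at 500 bp outside the gene and to 23.9% at 2000 bp inside.

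A second region on the same gene was common, and nearly always shared with a neighbour. Of the marked genes, 1782 had 2 or more shared regions. In 1737 of these at least 1 of the regions also held another gene, and in 45 each region was on that gene alone. Genes with 3 regions were AT2G43140, ORP2A, an oxysterol-binding protein gene, APE1, a gene of photosynthetic acclimation, and RCF3, a KH-domain gene of RNA processing, all named after their values were seen.

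Regions without a protein-coding gene numbered 226 (1.62%). They were narrower, with a median of 1536.25 bp, and weaker, with a median percentile of 20.3 against 46.8 for regions with 1 gene. Pseudogenes were touched by 64 of them, lncRNA genes by 64, transcribed pseudogenes by 43, ncRNA genes by 38, miRNA genes by 24, misc_RNA genes by 23, snoRNA genes by 14 and tRNA genes by 2, and 32 touched a protein-coding gene by less than 200 bp. Seen from the annotation, 3.88% of 3917 pseudogenes touched any shared region and 15.1% of 926 transcribed pseudogenes did. Among non-coding genes the share was 81.5% of 287 snoRNA genes, 72.2% of 79 antisense RNA genes, 42.5% of 221 ncRNA genes and 36.0% of 625 tRNA genes. It was 31.7% of 82 snRNA genes, 31.4% of 3480 lncRNA genes, 27.3% of 326 miRNA genes, 23.0% of 508 misc_RNA genes and 0 of 4 rRNA genes. Most of these touched regions that also held a protein-coding gene, so the peak is not that of the non-coding gene alone.

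Gene lists showed which kinds of genes were marked in seedlings. There were 15 lists with 284 genes, of which 273 matched a symbol in the annotation. For all protein-coding genes the share with a shared region was 61.8%, and the marked genes had a median percentile of 56.6 and a median width of 1953 bp. In 5 lists every matched gene was marked. Beside the hormone receptors, described next, these were 18 of 18 cytosolic ribosomal protein genes, 19 of 19 proteasome subunit genes, 14 of 14 housekeeping reference genes and 12 of 12 genes of RNA polymerase subunits and TATA-binding proteins. Their median percentiles were 65.9, 56.0, 64.7 and 47.6, so being marked did not mean ranking high. Median gene length was 1758.5 bp for the ribosomal protein genes, below the 2078 bp of all genes, and 7694.5 bp for the polymerase list. When 0.5 of the gene had to be covered, 3 of 12 polymerase genes (25%) were marked against 39.7% of all genes, which turns that list's direction, while the other 4 lists stayed above all genes at 63.2% to 94.4%.

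Within these lists the ranks varied widely. RPSAA, a component of the small ribosomal subunit, lay with ERF73 and AT1G72390 under 5173 and 5017 bp at percentiles of 99.14 and 99.01. RPS5B, alone in its region, had 1577 and 1663 bp at 28.1 and 28.9. RPL10A, in a region with AT1G14315, had 1492 and 2394 bp in the 2 libraries at 40.8 and 19.7, a case where the replicates differed. Among proteasome genes PBF1, a subunit of the catalytic core, was at 98.3 and 98.8 in a region mainly on ARP7, and PBE1, also of the core, at 20.4 and 28.0. The Pol II subunit gene NRPB2, in a region with AT4G21720, had percentiles of 94.1 and 92.6. NRPD1A and NRPE1, which encode the largest subunits of the silencing polymerases Pol IV and Pol V, had 15.8 and 27.4, and 18.6 and 10.6. The glycolytic gene GAPC2 (98.2 and 92.9) and the actin gene ACT7 (93.6 and 92.7) led the reference genes. The polyubiquitin genes UBQ10 (10.8 and 17.3, in a region with AGD13) and UBQ11 (13.4 and 14.5) were lowest, and since their ubiquitin repeats are near-identical to those of other genes their values are uncertain.

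Hormone receptor genes were all marked, and ranked high. All 33 had a shared region, with a median percentile of 83.3 against 56.6 for all marked genes, and 10 of 33 had a region above a mean percentile of 90. Of all protein-coding genes, marked or not, 8.91% had such a region. These were 2446 of the 16953 marked genes. The 10 included BRI1, the auxin receptor genes TIR1, AFB2 and AFB3, the gibberellin receptor gene GID1B, the jasmonate receptor gene COI1, the karrikin receptor gene KAI2 and the abscisic acid receptor genes PYL4, PYL6 and PYL8. Only 3 of the 33 shared their region with another gene. PYL8 had 2199 and 2327 bp at percentiles of 95.9 and 97.9. The lowest were AFB1, with 2573 and 2410 bp at 22.7 and 21.1, and PYL2, with 1294 and 1456 bp at 7.46 and 5.91. Members of 1 receptor family could thus lie at opposite ends of the ranking.

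Leaf genes were marked, with a sharp division inside the list. Of 27 genes for light harvesting and carbon fixation 23 had a shared region (85.2%, against 61.8% of all genes). Their median percentile was 82.3, against 56.6 for all marked genes. For 13 of the 23 the region also held another gene, so its rank is not that of the leaf gene alone. The same held for 7587 of all 16953 marked genes. LHCB6, a minor antenna protein gene, lay among 5 genes under 8260 and 8329 bp (chromosome 1, 5442247 to 5450575) at 99.9 in both libraries. GAPA, the gene of a chloroplast glyceraldehyde-3-phosphate dehydrogenase, had 5531 and 5551 bp at 99.4 and 99.8 and shared them with AT3G26630 and LWD2. At the other end stood LHCB2.2 (734 and 900 bp, at 3.11 and 1.12) and the Rubisco small subunit gene RBCS3B (777 and 808 bp, at 1.24 and 2.41). CAB1, CAB2 and CAB3, which encode the major antenna protein, and LHB1B1 had no shared region, although these genes are known for very high transcript levels in leaves. CAB1 to CAB3, the LHCB2 genes and RBCS1B, RBCS2B and RBCS3B are tandem or near-identical copies, so reads may not be assignable to 1 of them and their low or missing peaks are uncertain. RBCS1A, which lies apart from the other small subunit genes, was at a percentile of 50.4 with 2022 bp.

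Genes of organs absent from seedlings were mostly unmarked. The share marked was 5.56% of seed, 16.7% of floral and 31.6% of pollen and gamete genes, against 61.8% of all protein-coding genes. Of 18 seed storage and maturation genes 1 had a shared region, OLEO4, and it lay in a region whose gene of largest overlap was RST1 (2503 and 2481 bp). The cruciferin genes CRA1, CRB and CRC and the embryo regulators LEC1, LEC2, FUS3 and ABI3 had none. Of 12 floral organ identity genes 2 had one, CAL (1814 and 1850 bp) and LFY (2032 and 1947 bp), both in regions whose gene of largest overlap was a neighbour. AG, AP1, AP3, PI, the SEP and SHP genes and STK had none. Of 19 pollen and gamete genes 6 were marked, 5 of them in regions with another gene. AGL65, a MADS-box gene of pollen, lay with AT1G18740 under 4387 and 4591 bp at 99.6 in both libraries, and ANX1, a receptor kinase gene of pollen tubes, lay with CLPS3 at 96.5 and 96.9. VGD1, VGDH1 and PRK2A had no shared region.

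**Figure D4:**
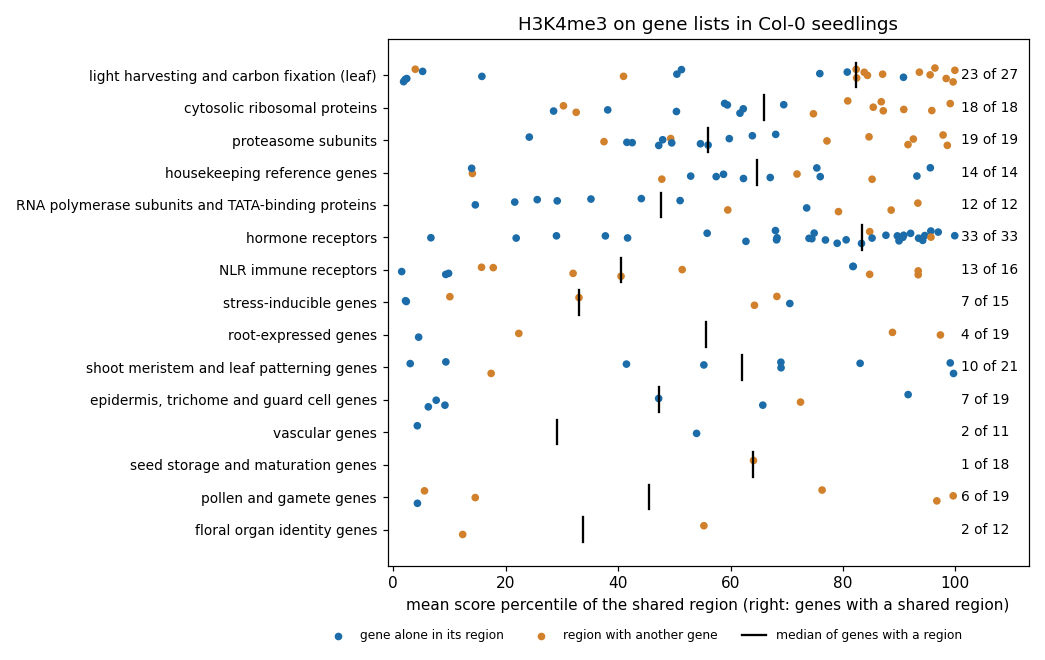
Each point is a gene of a list at the mean score percentile of its shared region, blue where the gene was alone in it and orange where the region held another gene; black lines give the median of the marked genes and the numbers at the right count marked genes among those matched. All 33 hormone receptor genes and all genes of the ribosomal, proteasome, reference and polymerase lists were marked, against 1 of 18 seed genes. Of all protein-coding genes 61.8% were marked.

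Root and vascular genes were also mostly unmarked, with 21.1% and 18.2% marked against 61.8% of all protein-coding genes. Of 19 root-expressed genes 4 had a shared region: SCR, a regulator of root radial patterning, in a region with SUA (4462 and 4600 bp, at 94.9 and 99.7), LHW with AT2G27229 (2898 and 3054 bp), CASP1, a Casparian strip gene, in a region mainly on AT2G36090 (1745 and 1796 bp), and the auxin exporter gene PIN2 (1581 and 1765 bp, at 2.55 and 6.45). The phosphate transporter gene PHT1;1, the iron transporter gene IRT1 and SHR had none. The list of vascular genes had 2 of 11 marked, CESA4 of secondary wall cellulose at 53.8 and 54.1 and the phloem sucrose transporter gene SUC2 at 1.88 and 6.65. In whole seedlings a mark in few cells and a weak mark in many cells cannot be told apart.

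The shoot and epidermis lists held both high-ranked and unmarked genes. Their shares of marked genes were 47.6% and 36.8%, below the 61.8% of all protein-coding genes. Of 21 shoot meristem and leaf patterning genes 10 were marked. TCP4, a regulator of leaf growth (2843 and 2859 bp, at 99.7 and 99.6), and the receptor kinase gene CLV1 (3299 and 3374 bp, at 98.98 and 99.17) were alone in their regions. The class III homeodomain genes PHV, REV and PHB were at mean percentiles of 83.0, 69.0 and 55.2. STM, WUS and CLV3, which act in the stem cell region, had no shared region, and neither had CUC2, CUC3, FIL and YAB3. KNAT6 had the lowest rank, 3.55 and 2.46, with 1484 and 1451 bp. Among 19 epidermis, trichome and guard cell genes 7 were marked, led by TTG1 (2161 and 2274 bp, at 93.9 and 89.2). GL2 (2417 and 2276 bp) lay in a region with other genes, and CPC and EGL3 were at mean percentiles of 7.62 and 6.22. SPCH, MUTE and FAMA, the successive regulators of stomatal development, had none, and neither had ATML1 and PDF2, which act throughout the epidermis.

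Genes that respond to stress or pathogens were mixed. Of 15 stress-inducible genes 7 were marked and none had a mean percentile above 90. The 46.7% marked lay below the 61.8% of all genes, but with 0.5 of the gene covered 6 of 15 (40%) were marked, against 39.7%. RD29A, a drought and cold response gene, had 3066 and 3085 bp at 68.5 and 72.6. The heat shock factor gene HSFA2 had 2939 and 3268 bp and shared them with ftsh4. The cold regulators CBF2 and CBF3 had narrow, weak regions (1019 and 994 bp, and 1135 and 1106 bp, at mean percentiles of 2.31 and 2.17), and CBF1, their tandem neighbour, had none. These 3 genes are close copies, so their peaks are uncertain too. COR15A, COR15B, KIN1 and the pathogenesis-related genes PR1, PR2, PR5 and PDF1.2 had no shared region. Of 16 NLR immune receptor genes 13 (81.2%) were marked, with a median percentile of 40.5. Their median gene length was 3692 bp, and of all genes of 3000 to 4000 bp 79.3% were marked. With 0.5 of the gene covered 7 of 16 NLR genes (43.8%) were marked, against 39.7% of all genes. RPS4 and RRS1, which act as a pair, shared 2596 and 2964 bp (chromosome 5) at 94.0 and 92.8. RPP4 (10.8 and 7.89) and SUMM2 (1.35 and 1.62) were lowest, and RPP8, CHS1 and WRR4 had none.

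Gene families grouped by the letters of their symbol, a grouping chosen after the values were seen, spanned the whole range. There were 55 families of at least 20 protein-coding genes. Against 61.8% of all genes, all 24 RPS genes and 157 of 160 EMB genes (98.1%), whose mutants are embryo-defective, were marked. So were 28 of 29 VPS genes of vesicle sorting, 21 of 22 RPL genes and 27 of 29 UBP genes. Most UBP genes encode ubiquitin proteases, but the shared letters also brought in UBP1A and UBP1B, which do not. EMB genes without a shared region were emb2204, EMB2743 and EMB2271. None of 27 SCRL genes and 4 of 80 LCR genes were marked; both families encode small cysteine-rich secreted proteins, and their median gene lengths were 582 and 584.5 bp. Of all genes of 500 to 1000 bp 25.3% were marked. Of 30 CLE peptide genes, with a median length of 834 bp, 7 were marked (23.3%), close to that share. Of 120 MYB genes, with a median length of 1790.5 bp, 32 were marked (26.7%), against 62.2% of all genes of 1500 to 2000 bp. LBD genes combined few marked members, 9 of 35, with a high median percentile of 90.7. The highest of them were LBD39 (94.9) and LBD38 (94.4), which repress nitrate response and anthocyanin genes. Enzyme and transporter families differed among themselves. Marked were 6 of 23 CHX genes (26.1%), 11 of 40 BGLU genes (27.5%), 82 of 229 CYP genes (35.8%) and 20 of 42 ABCG genes (47.6%). With 35 of 58 (60.3%) UGT genes were close to the share of all genes.

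Shared regions followed the genes along the chromosomes. Chromosome 1 held 3676 regions (26.3%, with 26.1% of the protein-coding genes), chromosome 2 held 2134 (15.3% against 15.7%), chromosome 3 held 2766 (19.8% against 19.9%), chromosome 4 held 2125 (15.2% against 15.2%) and chromosome 5 held 3283 (23.5% against 23.1%). Between 61.3% and 62.8% of genes were marked on chromosomes 1, 3, 4 and 5, and 58.7% on chromosome 2. Density was 108 regions per Mb on chromosome 2, the lowest, and 122 on chromosome 5, the highest. Median width was 1830.25 to 1889.25 bp and the median percentile 49.8 to 54.1, both highest on chromosome 3. Neighbouring regions were 3048 to 3439 bp apart at the median. Regions began close to the chromosome ends, at 2814, 3195 and 3305 bp on chromosomes 3, 1 and 5, but at 12106 bp on chromosome 4 and 74066 bp on chromosome 2, both of which carry ribosomal DNA arrays at that end.

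The longest stretches with no shared region lay inside the chromosomes, in the parts around the centromeres. On chromosome 1 none was found from 14296658 to 15606917, a gap of 1310 kb with 11 annotated protein-coding genes. The longest gap was 829 kb on chromosome 3 (12659733 to 13488647, with 29 genes), 460 kb on chromosome 5 (12089070 to 12548735, with 5 genes) and 362 kb on chromosome 4 (2994391 to 3356391, with 4 genes). Chromosome 2 was different, with a gap of 468 kb (3057710 to 3525772) that held 100 protein-coding genes. These were 100 genes in a row, AT2G07440 to AT2G07680, the longest run of unmarked genes in the genome; the next runs had 48 and 31 genes. This part of chromosome 2 is known for a large insertion of mitochondrial DNA, and reads from such copies may not be assignable to the nucleus, so the missing peaks are uncertain. The longest run of neighbouring marked genes had 27 members, AT1G06530 to AT1G06800 on chromosome 1.

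Gene-poor windows had fewer marked genes, not only fewer genes. The genome was divided into 235 windows of 500 kb, and the 38 windows with under 0.5 of the median of 130 genes were called gene-poor from the annotation alone. The last, incomplete window of each chromosome was left out. Gene-poor windows held 4% of the genes but 2.72% of the regions in all 235 windows. Of their 1076 genes 337 (31.3%) were marked, against 16193 of 25843 (62.7%) in the other 197 windows. In single gene-poor windows with a gene the share ran from 0 to 57.1% with a median of 28.4%, and in other windows from 1.96% to 82.7% with a median of 63.3%, so the ranges overlapped. Regions in gene-poor windows were of nearly the same kind, with a median width of 1714 bp against 1857 bp and a median percentile of 44.2 against 51.1. They lacked a protein-coding gene more often, in 13.4% against 1.30%. Spearman's rho across windows was 0.885 between genes and regions per window and 0.757 between genes and the share of genes marked, as descriptions.

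**Figure D5:**
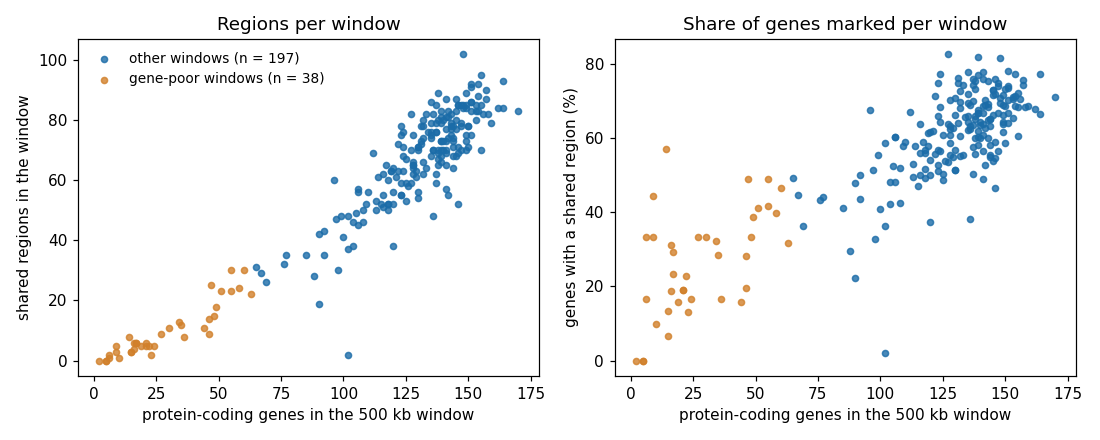
Shared regions per 500 kb window (left) and percent of protein-coding genes with a shared region (right) against the number of protein-coding genes in the window; each point is 1 window, orange for the 38 gene-poor ones. The point with 102 genes and 2 regions is the window of chromosome 2 from 3000001 to 3500000, where 1.96% of genes were marked.

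Single windows showed the extremes. The fullest, on chromosome 3 from 2000001 to 2500000, had 102 regions over 148 genes, of which 81.8% were marked. No region was found in 3 windows, on chromosome 1 from 14500001 to 15500000 and on chromosome 3 from 13500001 to 14000000, which held 5, 5 and 2 genes. Besides the window on chromosome 2, the lowest share outside the gene-poor windows was 22.2% of 90 genes, on chromosome 5 from 14000001 to 14500000.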

How the data were processed

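For every H3K4me3 library a separate peak list was deposited, which gives positions in bp and a peak score and has no header. The submitters' processing notes name TAIR10 as the build and, as tools, MACS 1.4, Bowtie2 2.2.8, deepTools 2.4.1 and ChIPseeker, and do not say what each did. The scale of the score is not given in the sources used here, so the deposited score served only for ranks. The lists give no read counts, so depth is unknown, no counting interval is given, and a region without a peak may hold the mark below the detection limit. Chloroplast peaks (1 and 3) and the H3 libraries were not used here.

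Starts were counted from 1. Genes came from a RefSeq table of assembly TAIR10.1, which has no strand; its coordinates were used for overlap only. Shifting the genes by up to 3000 bp in steps of 200 bp gave the largest overlap at no shift on 3 chromosomes, and at no shift 99.87% or more of the best on all 5. Merging recovered all 2821 simulated shared regions, and gene assignment found the genes placed on them. The simulated regions lay far apart with little shift between the lists, and no simulated gene had a partial overlap under 200 bp. Fusion of neighbours and the 200 bp limit were therefore not tried by this check. The genes named were the 10 widest, narrowest, highest and lowest ranked regions with a symbol, and per list the 2 highest, the 2 lowest and up to 3 unmarked members; any further member was named with its values already known. The regions and lists were chosen with earlier results of these data known. Python 3.11.15, pandas 2.3.3, numpy 2.4.6 and matplotlib 3.10.9 were used.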

Additional observations from a re-analysis of the deposited data

How the results depend on the processing

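No paired analysis was possible because no result came from a test and only 1 group was used. With peaks of a score of at least 100 the median width was 1894 bp, rho between the score ranks 0.9517 and the share of long genes covered at 1 end 95.79%. With peaks sharing at least 0.5 of each peak rho was 0.9645. In single lists, leaving out the other library, the median width was 1839 to 1858 bp and the share at 1 end 94.26 to 94.84%; no rho can be had from 1 list. Where the overlap had to reach 0.5 of the gene, 10883 genes were marked and 91.88% of long genes were covered at 1 end. With gene-poor set below 0.25 of the median, such windows held 96 regions. Recomputed list counts stayed within 1.5 times the reported one in 91 cases and moved further in 14. At an overlap of 0.5 of the gene the latter were 3 of 12 polymerase (25%), 12 of 19 proteasome (63.2%) and 7 of 16 NLR genes (43.8%). The others there were 1 of 19 root, 5 of 21 shoot, 4 of 19 epidermis, 1 of 11 vascular, 1 of 19 pollen and 0 of 12 floral genes. All genes stood at 39.7%. At a score of at least 100 they were 4 of 15 stress-inducible, 4 of 19 epidermis, 1 of 11 vascular and 1 of 12 floral genes. At an overlap of 1 bp 3 of 18 seed genes (16.7%) were marked, against 63.9% of all genes. A count with 200 bp of a peak of each library on the gene, chosen after seeing the data, gave 16781 marked genes. Motifs in promoters were planned and not run, since no sequence was used here.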
